A study of Homo sapiens with 18 samples.

Results

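The transcripts described here came from 6 genes, ID1, ID2, ID3, ID4, HES1 and HES4, of 63568 gene entries measured. The genes were taken by name as developmental regulators, several of which are known for short-lived mRNAs. Their transcripts were followed in HEK293 cells, an established human embryonic kidney line, by RNA sequencing. Cells received 500 uM 4-thiouridine, a uridine analogue that is built into new RNA and lets it be biotinylated and purified on streptavidin. There were 15 labelled libraries, 3 each after 7.5, 15, 30, 45 and 60 min, and 3 libraries of total RNA. The total libraries were made with oligo(dT) selection (poly(A)), with rRNA removed by RNase H, or with Ribo-Zero, so they differ in preparation and not only by replicate. Whether the 3 libraries of a time came from separate cultures is not stated in the labels, and p-values therefore cover the spread among these libraries, which may be technical. No knockout or drug was used, and the only agent was the label itself.

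ID proteins are helix-loop-helix proteins without a DNA-binding basic region. They pair with the E proteins TCF3, TCF4 and TCF12 and keep them from binding DNA. ID1, ID2 and ID3 are well-known targets of BMP receptors, which act through SMAD proteins. HES proteins are helix-loop-helix repressors that work with TLE co-repressors, and HES1 is a classic target of Notch, whose cleaved intracellular part acts through RBPJ. Messages of several members of these families are known for fast turnover, and labelled and total RNA can show a short-lived message at very different levels. Whether turnover accounts for the differences described below was not tested.

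The HES1 and HES4 promoters are shown because these paralogues stood on opposite sides of most comparisons below. Each sequence runs from 250 bases before to 50 bases after the start site on the gene's strand (RefSeq, GRCh38.p14), and all 6 genes had an entry. Capitals mark GTGGGAA, which contains the core letters that RBPJ binds, searched on both strands. The HES1 window is chr3:194135898-194136197 on the plus strand, and the HES4 window is chr1:1000048-1000347 on the minus strand.
HES1: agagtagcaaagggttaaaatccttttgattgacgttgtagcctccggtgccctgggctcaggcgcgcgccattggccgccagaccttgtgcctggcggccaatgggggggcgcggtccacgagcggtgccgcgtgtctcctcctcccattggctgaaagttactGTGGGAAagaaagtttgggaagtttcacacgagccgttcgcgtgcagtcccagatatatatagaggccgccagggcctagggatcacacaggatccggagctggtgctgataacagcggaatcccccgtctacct
HES4: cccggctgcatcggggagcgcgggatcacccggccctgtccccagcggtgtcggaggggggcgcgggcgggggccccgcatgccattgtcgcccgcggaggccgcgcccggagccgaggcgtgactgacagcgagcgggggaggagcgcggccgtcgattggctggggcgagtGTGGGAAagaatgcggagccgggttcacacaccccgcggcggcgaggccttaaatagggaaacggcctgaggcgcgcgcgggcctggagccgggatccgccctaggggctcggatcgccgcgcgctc

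The match began 85 bases before the start site in HES1 and 77 bases before it in HES4. Among 35116 promoter windows of 300 bases, 6.25% held the letters on either strand. The 4 ID promoter windows held 0 matches.

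Heptamers of the letters TATTTAT in the 3′ UTR are shown because AU-rich elements of this kind are a known feature of many short-lived mRNAs. They were searched in the transcript with the longest coding sequence of each gene (GENCODE 29, GRCh38), and capitals mark the heptamer on the transcript strand.
ID2 first site: gtgatattcgtTATTTATgaaaaagactt
ID2 second site: tgctgtgtataTATTTATatataaatata
HES4 site: agcagagaaaacgTATTTATtattccaga

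ID2 held 2 heptamers in a 3′ UTR of 776 bases, and 21.5% of 2029 3′ UTRs of like length (0.8 to 1.2 times as long) held at least 1. HES4 held 1 in only 97 bases, where 3.2% of 714 like-length 3′ UTRs held one. ID1, ID3, ID4 and HES1 held 0, and HES1 also held 0 of the shorter ATTTA pentamer, against a median of 1 in like-length 3′ UTRs. Of the authors' degradation scores given further on, that of ID1 was the highest of the 6 and that of HES4 the lowest.

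On GRCh38 (GENCODE 29), ID1 lies at chr20:31605283-31606515 and ID2 at chr2:8678845-8684453, both on the plus strand. ID3 lies at chr1:23557918-23559794 on the minus strand and ID4 at chr6:19837386-19840684 on the plus strand. HES1 lies at chr3:194136145-194138732 on the plus strand and HES4 at chr1:998962-1000172 on the minus strand. Values are in TPM, transcripts per 1000000 of a library, a share that is corrected for transcript length. The authors gave each gene a mature value (all annotated isoforms) and a primary value (an added isoform that spans the unspliced locus). ID1 was treated as a single-exon gene, so its value sums both kinds of RNA and it has no primary value, although GENCODE 29 also lists a spliced ID1 transcript.

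In the deposited TPM files depth in reads is unknown. Mature transcripts of 18318 to 20407 genes were above 0 in 14 labelled libraries, and of 22906 to 24470 genes in total RNA. The second library at 45 min stood apart with 15159. Of 5 listed HEK293 markers 3 were matched, and 2 passed the filter on low values: VIM at 325 ± 39.9 and PAX2 at 8.87 ± 1.39 mature TPM after 7.5 min (SD, n = 3). PAX2 was at 4.64 ± 1.40 TPM after 60 min. NEFM, the other matched marker, was at only 0.28 ± 0.296 TPM after 7.5 min and did not pass the filter. LHX1 and NEFL were not matched. Of 10 markers of other cells (blood, liver, muscle, endothelium, fibroblasts, epithelium and glia), 3 passed that filter: HBA1 at 6.61 ± 8.58, COL1A1 at 1.42 ± 0.387 and CDH1 at 0.213 ± 0.370 TPM after 7.5 min. PTPRC, HBB, ALB, PECAM1 and MYH7 were at or near 0.

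Which of these transcripts build up in newly made RNA over the hour was asked by comparing 60 with 7.5 min of labelling. ID4 and HES1 rose, by 5.05-fold and 3.32-fold, with tight libraries. ID1, ID2 and ID3 had positive differences of like size but spread widely between libraries and did not pass the test. With library number added to the fit as a block they passed (limma adjusted p = 0.00493, 8.60e-04 and 4.27e-05). That fit called 28.4% of all genes, against 20.1% without the block. Whether equal numbers pair the libraries is not stated in the labels. HES4 alone among the 6 had a negative difference, which passed in neither fit. Levels of each gene in each library are in the plot of mature TPM by labelling time.

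**Figure D1:**
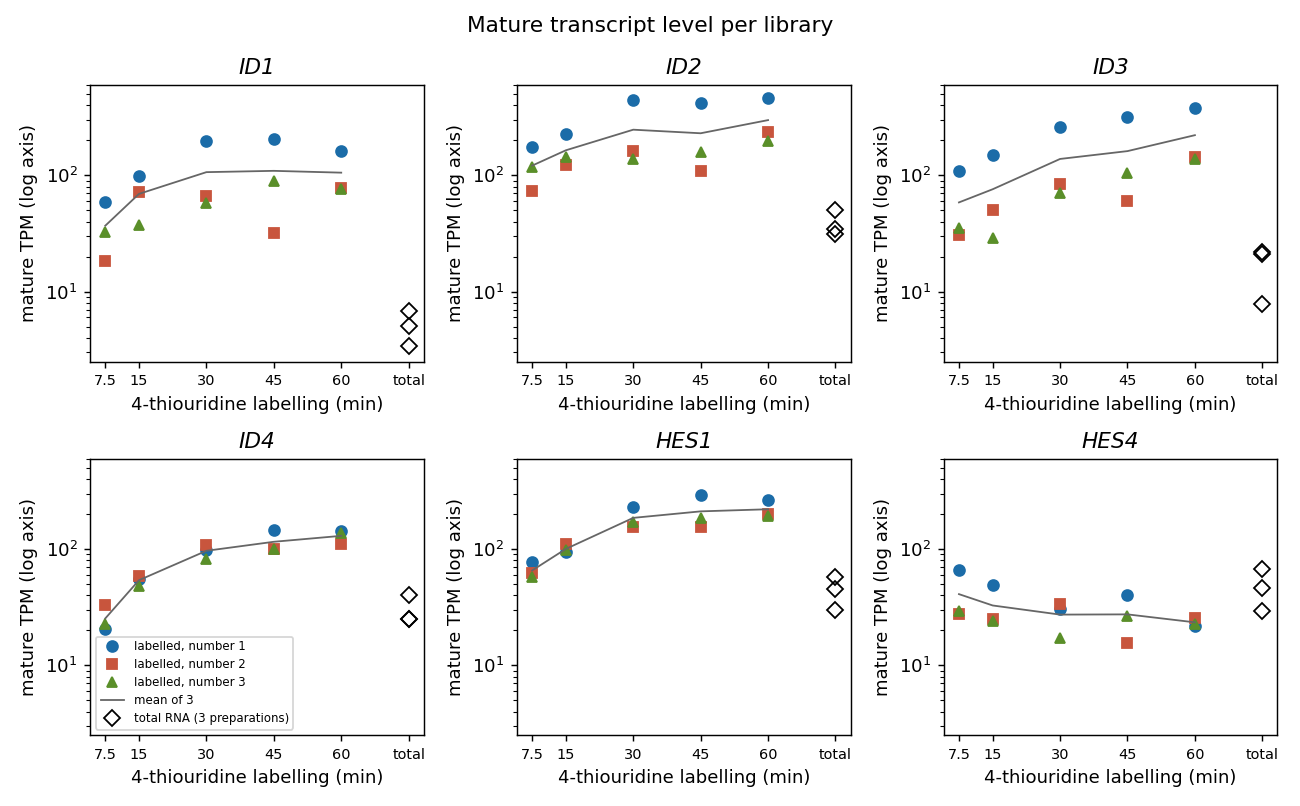
Mature TPM (log axis) of each gene against labelling time in min, with 1 marker shape per library number, the line through the mean of 3, and open diamonds for the 3 total RNA preparations. ID4 and HES1 climb with close markers, ID1, ID2 and ID3 have library 1 on top at every time, and the 3 total RNA values of HES4 lie above its 60 min values.

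ID4 keeps E proteins from acting in neural and other progenitors. Its mature level was 20.5, 33.1 and 22.6 TPM after 7.5 min in libraries 1, 2 and 3, lettered A, B and C in the titles. It was 55.2, 58.6 and 48.5 TPM after 15 min and 98.6, 109.6 and 82.3 TPM after 30 min. It reached 146.2, 101.0 and 100.0 TPM after 45 min and 142.5, 111.1 and 137.0 TPM after 60 min. Libraries of 7.5, 15 and 30 min did not overlap, whereas 45 min overlapped both 30 and 60 min. The log2 difference between 60 and 7.5 min was 2.34 ± 0.22 (SE, limma adjusted p = 9.53e-06, n = 3 a group). In bulk RNA, fewer cells that express a gene and less RNA per cell cannot be told apart.

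HES1, the Notch-responsive repressor, was at 77.2, 62.4 and 57.1 TPM after 7.5 min. It was at 93.6, 110.3 and 97.5 TPM after 15 min, and at 230.9, 153.7 and 172.9 TPM after 30 min. The values were 295.0, 153.6 and 185.6 TPM after 45 min and 265.9, 201.8 and 193.5 TPM after 60 min. The lowest library at 30 min was above the highest at 15 min, and from 30 min on the times overlapped. The log2 difference between 60 and 7.5 min was 1.73 ± 0.24 (SE, limma adjusted p = 1.55e-04).

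ID1 was at 59.6, 18.4 and 32.9 TPM after 7.5 min, at 195.8, 66.2 and 58.1 TPM after 30 min and at 163.2, 77.3 and 76.3 TPM after 60 min. Its first library at 7.5 min was above its lowest library at 30 min, so those times overlapped. The log2 difference between 60 and 7.5 min was 1.55 ± 0.63 (SE, limma adjusted p = 0.1003). ID1 at 45 min ranged most widely, with 207.0, 32.1 and 89.3 TPM, the low value being in the library with few genes above 0.

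ID2, the most abundant of the 6 in labelled RNA, was at 173.9, 73.2 and 117.1 TPM after 7.5 min and at 461.4, 237.1 and 198.4 TPM after 60 min. Its log2 difference was 1.28 ± 0.52 (SE, limma adjusted p = 0.0987). ID3 was at 110.0, 30.6 and 35.2 TPM after 7.5 min and at 382.2, 145.1 and 138.3 TPM after 60 min. Its log2 difference was 1.98 ± 0.72 (SE, limma adjusted p = 0.0654), larger than that of HES1 but with 3 times its standard error. For both genes the first library was high and the other two were close to each other at 60 min.

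HES4, a second HES repressor that has no counterpart in mouse, went the other way in value. It was at 65.8, 27.7 and 29.6 TPM after 7.5 min, at 49.3, 25.1 and 24.0 TPM after 15 min and at 30.7, 34.1 and 17.4 TPM after 30 min. It was at 40.0, 15.6 and 26.9 TPM after 45 min and at 21.9, 25.8 and 22.8 TPM after 60 min. All 3 libraries at 60 min were below all 3 at 7.5 min, but the highest of the former was within 2 TPM of the lowest of the latter. The log2 difference of -0.67 ± 0.40 did not pass (SE, limma adjusted p = 0.276).

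With 2 of 6 genes called in this comparison, the count is read against 20.1% of all 16739 genes tested (2653 higher and 705 lower). The groups did not overlap for any of the 6, against 40.8% of all genes. All genes had a median log2 difference of 0.24. Mature TPM share each library with primary TPM, and with TPM rescaled over mature transcripts the median was 0.04. The cause was not tested. With median-ratio scaling of the libraries the median was -0.05, and 1296 genes were called higher and 1307 lower. Under that scaling ID4 (1.99), HES1 (1.39) and HES4 (-1.01) kept their signs and sides of the threshold. In a fit of only the 6 libraries compared, ID1, ID2 and ID3 also passed (limma adjusted p = 0.0264, 0.0324 and 0.0206). That fit called more genes in all, 4063 of 16630, against 3358 of 16739 in the main fit.

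The mature rise was smaller when primary transcripts were added in. With mature and primary TPM summed, the log2 difference was 1.06 for HES1 (limma adjusted p = 0.0166) and 0.51 for ID4 (limma adjusted p = 0.184), so that the ID4 call was lost. ID1 has no separate primary value, so its difference stayed at 1.55, the largest on this scale (limma adjusted p = 0.140). ID3 was at 1.24, ID2 at 0.97 and HES4 at -0.49 (limma adjusted p = 0.228, 0.243 and 0.469). The summed level of ID4 was 111.9 ± 34.5 TPM after 7.5 min and 156.0 ± 22.0 TPM after 60 min (SD, n = 3), and these libraries overlapped. For HES1 it was 118.5 ± 31.5 TPM and 245.6 ± 47.4 TPM, with no overlap.

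By 30 min ID4 and HES1 already passed against 7.5 min, with log2 differences of 1.91 ± 0.22 and 1.48 ± 0.24 (SE, limma adjusted p = 1.14e-04 and 0.00125). These 2 of 6 stand beside 8.54% of all genes called at 30 min. Between 30 and 60 min 0 of 6 genes passed in limma, as did 0 of all genes (0% called). At an unadjusted p under 0.05 limma had 1648 of 16739 genes and 0 of the 6. The largest difference in that step was in ID3 (0.76 ± 0.72, SE), and ID1 differed by 0.12 ± 0.63 (SE) with a sign that changed under median-ratio scaling (-0.03).

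The order of mature levels changed along the course. TPM are corrected for transcript length but not for uridine content, and the ID1 value also holds primary RNA. The order between genes is therefore a rough one. After 60 min the means were 299.0 TPM for ID2, 221.9 for ID3, 220.4 for HES1, 130.2 for ID4, 105.6 for ID1 and 23.5 for HES4. ID2, ID3 and HES1 overlapped one another in single libraries, as did ID4 and ID1, while HES4 stayed below every other gene. In total RNA the order was HES4 at 48.0 TPM, HES1 at 44.5, ID2 at 38.6, ID4 at 30.1, ID3 at 17.0 and ID1 at 5.12, with HES4, HES1, ID2 and ID4 overlapping.

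ID1, ID2 and ID3 shared a pattern that ID4 did not have. In each of them library 1 was the highest of 3 at all 5 labelling times, which held for 4.30% of all genes. Over the 5 times library 1 was on average 2.57-fold above the other libraries for ID1, 2.30-fold for ID2 and 3.39-fold for ID3. These ratios exceeded those of 99.4%, 99.0% and 99.8% of all genes. The same ratio was 1.06 for ID4, 1.31 for HES1 and 1.57 for HES4, with library 1 highest at 2, 4 and 3 of the times.

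Within the BMP and SMAD list, 4 of 23 genes tested also had library 1 highest at all 5 times, beside 4.30% of all genes. They were NOG, SKI, SMAD6 and SMAD7, named after their values were seen. SMAD6 and SMAD7 are inhibitory SMADs that are themselves induced by BMP signals, NOG encodes the secreted BMP antagonist noggin, and SKI is a SMAD co-repressor. In the Notch list the count was 4 of 32 (DLL4, MAML1, NRARP and PSENEN). The median log2 excess of library 1 over the others was 0.043 in the BMP and SMAD list and 0.011 in the Notch list. It was 0.756 for other HES and HEY genes, 0.118 for TLE co-repressors, 0.081 for E proteins and -0.097 over all genes. At 60 min library 1 had a primary share of 7.19% of all TPM, against 9.69% and 11.03% in the others, but at 7.5 min it had 23.4% against 22.3% and 23.8%. Their part in the pattern was not tested.

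Over the 15 labelled libraries the time course and the library pattern gave pairs of like genes, described here by Pearson's r of log2(mature TPM + 1) without a test, since all points share libraries. ID1, ID2 and ID3 had r of 0.91 to 0.94 with one another, and ID4 and HES1 had 0.94. HES4 had -0.43 with ID4 and -0.29 with HES1. Among all genes of at least 10 TPM, those most like ID1 were RHOB (0.95), B3GALT6 (0.94) and ADO (0.94), RHOB being a small GTPase with a known short-lived message. Those most like ID2 were IMP3 (0.94), ID1 (0.94) and RHOB (0.93). For ID3 they included GLUL (0.97) and MT-CO3 (0.97).

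The genes most like ID4 were DDX20, BTG2 and E2F3, each at 0.97. BTG2 encodes an antiproliferative factor that recruits deadenylases, and its mean went from 30.2 to 98.0 TPM between 7.5 and 60 min. HES1 was most like RPRD2 (0.99), CDKN1B (0.98) and NACC2 (0.98), CDKN1B being the cell-cycle inhibitor p27. HES4 was most like AES (0.91), BCKDK (0.86) and MCRIP1 (0.84). AES is a short member of the TLE family, and its mean went from 45.1 to 24.0 TPM.

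The share of these transcripts in total RNA, which holds RNA of every age, was compared with their share in RNA labelled for 60 min. ID1, ID2, ID3, ID4 and HES1 were lower in total RNA, and HES4 was higher in value. ID1 was at 6.88 TPM in the poly(A), 3.39 in the RNase H and 5.09 in the Ribo-Zero library, against 76.3 TPM or more in labelled RNA. This was 16.8-fold lower (log2 -4.07 ± 0.59, SE, limma adjusted p = 3.27e-05). ID3 was at 21.0, 7.87 and 22.0 TPM in the same order, 12.0-fold lower (log2 -3.59 ± 0.69, SE, limma adjusted p = 4.25e-04). ID2 was at 49.9, 31.1 and 34.9 TPM, 7.21-fold lower (log2 -2.85 ± 0.50, SE, limma adjusted p = 1.66e-04).

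HES1 was at 58.2, 45.5 and 29.7 TPM in total RNA, 4.99-fold lower than at 60 min (log2 -2.32 ± 0.28, SE, limma adjusted p = 5.75e-06). ID4 was at 40.5, 25.1 and 24.9 TPM, 4.30-fold lower (log2 -2.10 ± 0.26, SE, limma adjusted p = 5.63e-06). HES4 was at 67.9, 29.6 and 46.6 TPM in total RNA, each above its highest labelled value at 60 min. Its log2 difference was 0.93 ± 0.41 (SE, limma adjusted p = 0.0725).

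Against these 5 of 6 genes, 45.4% of all 16580 genes were called, 869 higher and 6653 lower, with a median log2 difference of -0.84. The groups did not overlap for any of the 6, against 58.8% of all genes. With median-ratio scaling this median was -0.06, and 2856 genes were called higher and 2517 lower. The 5 genes stayed lower under it (-3.16 for ID1, -1.11 for ID4), and HES4 then passed as higher (1.91, limma adjusted p = 0.00252). HES4 also passed without the RNase H library (1.23, limma adjusted p = 0.0368) and in a fit of the 6 libraries compared (adjusted p = 0.0365). It did not pass without the poly(A) library (0.64, limma adjusted p = 0.245) or the Ribo-Zero library (0.91, 0.148). Leaving out any single library of 60 min did not make it pass either (limma adjusted p = 0.109 to 0.143). Only 0.0905% of all genes had a lower log2 difference than ID1, and 0.265% had a lower one than ID3. All 18 library titles carry R1, and those of the 3 preparations differ only in the selection method. Whether the 3 preparations are separate samples is not stated. Taken as 1 averaged sample, they left the same 5 calls, and HES4 had an adjusted p of 0.256.

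**Figure D2:**
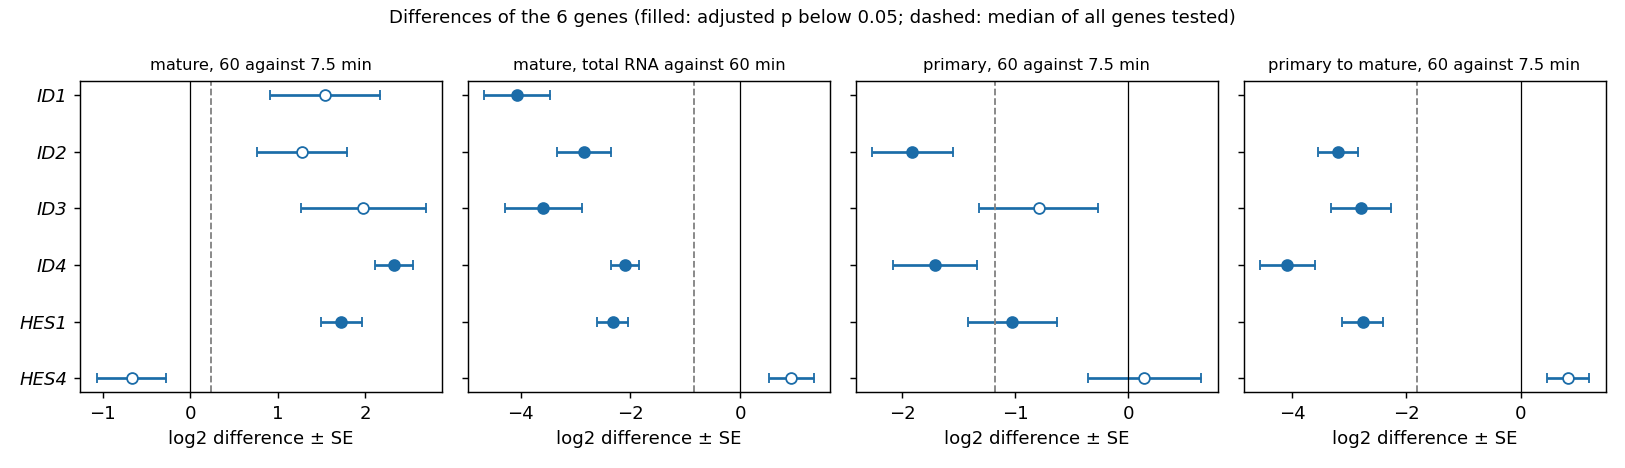
Log2 difference ± SE (horizontal axis) of the 6 genes in 4 comparisons, filled where the adjusted p is below 0.05, with the median of all genes tested as a dashed line. HES4 sits on the other side of 0 from ID2, ID4 and HES1 in every panel, and ID1 has no primary value.

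The authors' estimates of mature copies per cell, scaled by spike-in RNA, were lowest for ID1, at 0.736 with poly(A) selection, 1.46 with RNase H and 1.09 with Ribo-Zero. HES1 was at 5.34, 18.4 and 6.84 copies and HES4 at 6.16, 12.1 and 10.9. ID2 was at 4.63, 12.7 and 8.08, ID4 at 3.81, 10.3 and 5.68, and ID3 at 2.07, 3.33 and 5.02 copies. Except for ID3, which was highest with Ribo-Zero, the RNase H estimate was the highest of 3, and for HES1 the preparations differed by more than 3-fold.

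Splicing was followed through the primary share, the primary TPM as a percentage of the sum of primary and mature TPM. ID4 started out mostly unspliced: its primary share was 86.5%, 62.7% and 76.3% after 7.5 min, 44.7%, 28.5% and 33.9% after 30 min and 20.3%, 17.6% and 11.4% after 60 min. The groups did not overlap, and after 7.5 min the mean was above that of 93.0% of 13878 genes. The primary to mature ratio of ID4 fell by 4.09 ± 0.48 on the log2 scale (SE, limma adjusted p = 1.94e-05), and 3.08% of genes fell further.

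ID2 had a low primary share, of 22.6%, 23.7% and 18.7% after 7.5 min and 2.11%, 3.23% and 3.53% after 60 min. This is a share of estimated isoforms and not of reads at an intron. Such reads, described below, showed the listed ID2 intron removed in only 27.3% after 7.5 min, so the measures differed there. Only 18.2% of genes had a lower mean share than ID2 after 7.5 min, and 3.11% after 60 min. The log2 ratio of primary to mature ID2 changed by -3.20 ± 0.35 (SE, limma adjusted p = 1.36e-05).

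HES1 went from 49.9%, 34.3% and 46.2% to 11.3%, 10.7% and 8.46%, and ID3 from 43.1%, 52.3% and 46.6% to 8.92%, 13.6% and 12.2%. Their log2 ratios changed by -2.77 ± 0.36 and -2.80 ± 0.52 (SE, limma adjusted p = 4.08e-05 and 4.66e-04). The second library at 45 min, which had few genes above 0, held a primary share of 44.2% for ID3, against 13.9% and 16.8% in the others. The median gene had a share of 38.9 ± 0.47% after 7.5 min and 14.8 ± 3.07% after 60 min (SD over 3 libraries).

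HES4 again differed in value. Its primary share was 17.8%, 13.1% and 23.6% after 7.5 min, 25.5%, 37.9% and 33.5% after 15 min and 32.1%, 30.8% and 21.4% after 60 min. The lowest library at 15 min was above the highest at 7.5 min, while 60 and 7.5 min overlapped. The log2 ratio changed by 0.83 ± 0.37 (SE, limma adjusted p = 0.0647), above that of 95.9% of genes. Without the third library of 7.5 min or of 60 min it passed as higher (adjusted p = 0.0345 and 0.0326). Without any other single library of these times it did not pass (limma adjusted p = 0.119 to 0.236). After 60 min the mean HES4 share of 28.1% was above that of 80.0% of genes, and in total RNA it was 2.43 ± 0.93% (SD over 3 preparations). For 4 of the 5 genes with a primary value the ratio fell and passed, beside 63.9% of 13879 genes called.

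**Figure D3:**
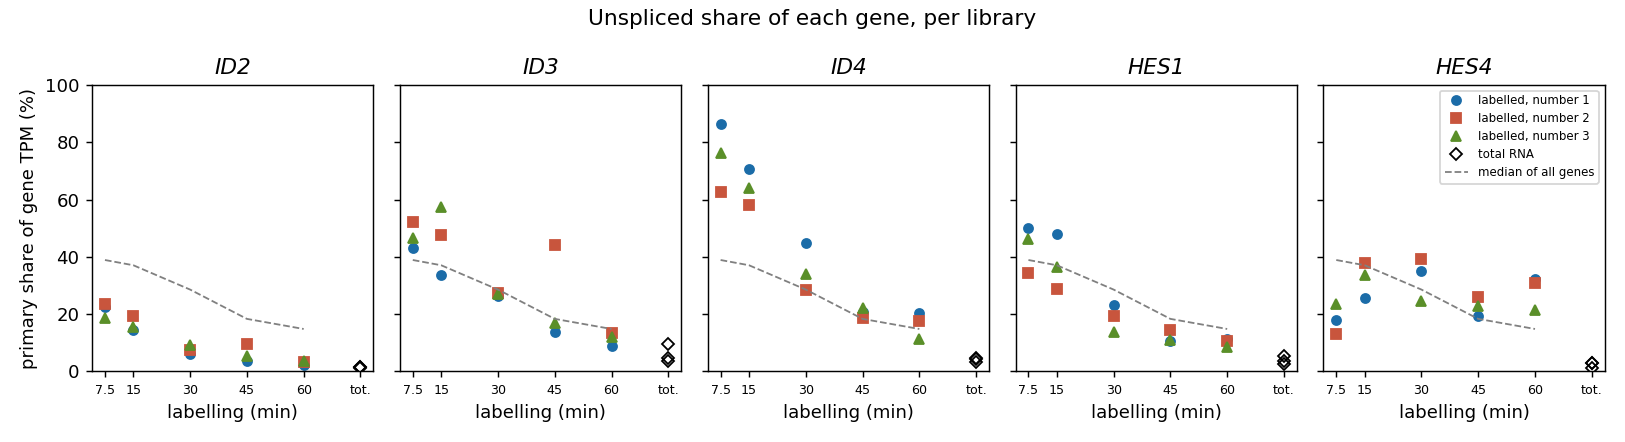
Primary share of each gene's TPM (%) against labelling time in min, with 1 marker shape per library number, open diamonds for total RNA and a dashed line for the median of all genes. ID4 starts highest, ID2 lies below the median line at every time, and HES4 ends above the line.

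Primary TPM on their own fell for ID2 (log2 -1.91 ± 0.36), ID4 (-1.71 ± 0.37) and HES1 (-1.02 ± 0.40; SE, limma adjusted p = 8.18e-04, 0.00163 and 0.0387). ID2 went from 50.9, 22.7 and 26.9 TPM after 7.5 min to 9.93, 7.92 and 7.27 TPM after 60 min, and ID4 from 131.0, 55.7 and 72.8 TPM to 36.2, 23.7 and 17.6 TPM. HES1 went from 77.0, 32.6 and 49.1 TPM to 33.8, 24.1 and 17.9 TPM, with overlap, and 4 of 6 single libraries ended its call when left out (adjusted p from 0.0761 to 0.167: the first and the third of 7.5 min, the second and the third of 60 min), as did fitting without a filter on low values (adjusted p = 0.0644). ID3 (-0.79 ± 0.53) and HES4 (0.14 ± 0.50) did not pass.

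These 3 of 5 genes compare with 60.0% of 20010 primary transcripts called, 122 higher and 11886 lower, with a median of -1.18. With median-ratio scaling this median was 0.07, and 2963 were called higher and 3135 lower. None of the 5 genes passed under it, and HES1 (0.46) and ID3 (0.69) took a positive sign. The factors came from primary transcripts alone, so this scaling puts the typical primary transcript near 0. It therefore shows each gene only relative to other primary transcripts.

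Single introns were described with the authors' excised share, the percentage of reads at an intron's junction and splice sites that show it removed, averaged over 3 replicates and so without an error. Coordinates are those of the deposited list (hg19). Of the 6 genes, ID2, ID3 and HES1 had introns listed, 6 in all of 21782, and the median of all introns was 54.2% after 7.5 min and 84.4% after 60 min. The ID2 intron of 778 bases (chr2:8823037-8823814) went from 27.3% to 39.3% at 15 min, 66.7% at 30 min and 88.6% at 60 min. Only 5.13% of introns were lower after 7.5 min, while 68.0% were lower after 60 min.

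The first HES1 intron (128 bases, chr3:193854278-193854405) was removed in 43.1% after 7.5 min and 87.2% after 60 min. The second (248 bases, chr3:193854502-193854749) went from 21.8% to 76.6%, and the third (634 bases, chr3:193854838-193855471) from 23.8% to 80.4% at 45 min and 74.5% at 60 min. After 7.5 min 1.95% and 2.81% of introns lay below the second and the third. The second had the lowest score for its 3′ splice site of the 6 introns, 6.60, with 19.2% of introns below it.

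Both ID3 introns were lower at 15 than at 7.5 min, as were 38.8% of all introns. The first (107 bases, chr1:23885511-23885617) had 47.0%, 41.8% and 84.1% after 7.5, 15 and 60 min. The second (519 bases, chr1:23884907-23885425) had 33.6%, 27.2% and 67.5%, and 12.6% of introns were lower after 60 min. Its 5′ splice site score of 10.7 was above that of 91.5% of introns.

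**Figure D4:**
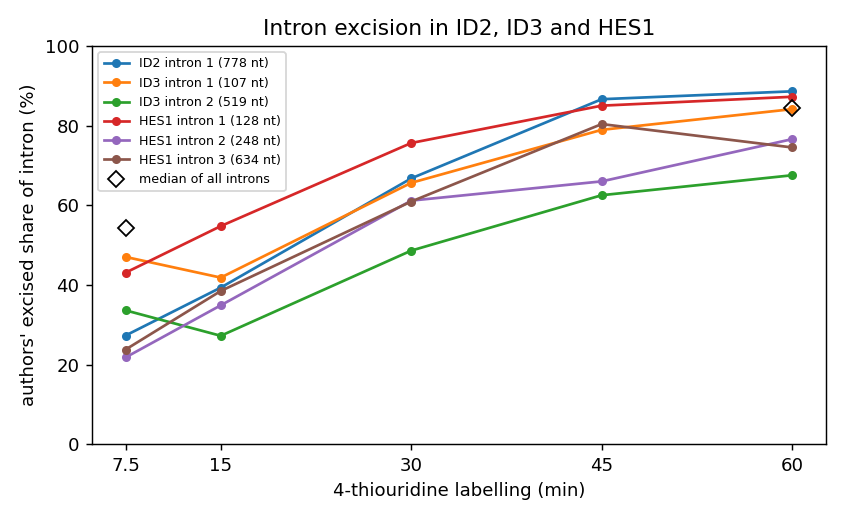
The authors' excised share (%) of the 6 listed introns of ID2, ID3 and HES1 against labelling time in min, with open diamonds for the median of all introns at 7.5 and 60 min. All 6 start below the median of 54.2%, and the second ID3 intron ends lowest at 67.5%.

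The authors' gene scores, deposited for 15120 genes, place the 6 genes on 6 axes without an error, and they were estimated in part from the labelled libraries described above. The degradation score was 0.71 for ID1, 0.51 for ID3, 0.29 for ID2, 0.19 for ID4 and 0.15 for HES1, against a median of -0.04. These lay above 93.5%, 89.8%, 80.7%, 73.9% and 70.4% of genes. HES4, with -0.55, lay above 7.76% of genes. Over 4163 genes the score was the log10 of the authors' linear rate plus a constant, to within an SD of 0.0482, so ID1 and HES4 stood more than 10-fold apart in estimated rate.

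Synthesis scores were high for 5 of the genes: 1.09 for ID2, 1.01 for HES1, 0.96 for ID3, 0.89 for ID4 and 0.63 for ID1, above 97.9%, 97.3%, 96.8%, 95.9% and 87.9% of genes. HES4 had 0.34, above 67.5%. The processing score was highest for ID2 (0.78, above 98.6% of genes) and lowest for HES4 (-0.38, above 16.1%), and for ID1 the authors imputed it. In the ratio of cytoplasmic to nuclear RNA, HES4 had -0.59, above 10.7% of genes, whereas ID3 had 0.72, above 96.6%. In the ratio of polysomal to cytosolic RNA HES4 had 0.57, above 96.6%, and HES1 -0.03, above 51.5%.

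The authors' clustering on these scores put ID1 and ID3 in cluster 3, HES4 in cluster 2, and ID2, ID4 and HES1 in cluster 1. Cluster 1 held 2066 genes and had the highest median synthesis score of 7 clusters (0.68) and the lowest median degradation score (-0.39). ID2, ID4 and HES1 thus had degradation scores above their own cluster's median, and HES4 one below the cluster 2 median of -0.25.

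**Figure D5:**
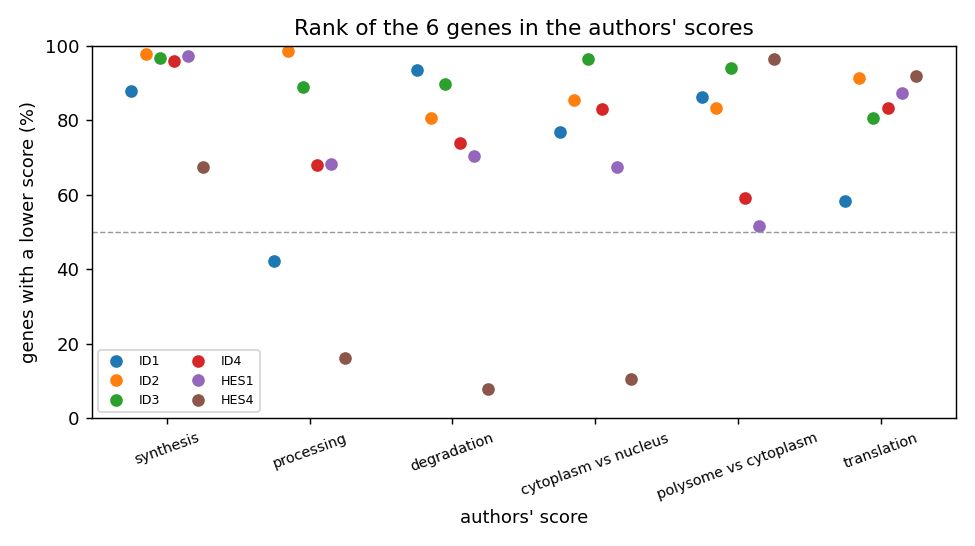
Percentage of genes with a lower value (vertical axis) in 6 of the authors' scores (horizontal axis), with 1 colour per gene. HES4 ranks last of the 6 in synthesis, processing, degradation and cytoplasm against nucleus, and ranks first in polysome against cytoplasm.

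Partners and upstream pathways were counted in the comparison of mature TPM at 60 and 7.5 min. Of 23 BMP and SMAD genes tested (28 listed), 8 rose and 0 fell, with a median log2 difference of 0.68, where 15.8% of all genes rose and 4.21% fell. SKI went from 29.3 ± 9.24 to 118.3 ± 21.3 TPM (log2 2.002, limma adjusted p = 1.53e-04) and SMAD4, the common SMAD, from 50.8 ± 14.6 to 88.3 ± 6.53 TPM (0.83, 0.0124; SD, n = 3). BAMBI, a decoy receptor, had the largest change, from 8.46 ± 0.125 to 71.9 ± 25.6 TPM (2.89, limma adjusted p = 1.02e-05). Those that rose were SMAD7, BAMBI, SKI and SMURF1, which are inhibitors of the pathway, and ACVR2B, SMAD1, SMAD4 and SMAD9. This grouping was made after the calls. The inhibitors SMAD6 and NOG did not pass (limma adjusted p = 0.0807 and 0.391), nor did SKIL, SMURF2 and CHRD (0.120, 0.189 and 0.875). Under median-ratio scaling, with 15.6% of all genes called, SMAD7, BAMBI, SKI and SMURF1 alone passed as higher.

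Of 32 Notch genes tested (35 listed), 8 rose and 1 fell, with a median of 0.44, beside the same shares of all genes. The ligand JAG1 changed most, from 5.27 ± 2.25 to 24.2 ± 0.552 TPM (log2 2.08, limma adjusted p = 2.32e-04). SPEN, a co-repressor of RBPJ, was the most abundant and went from 256.8 ± 64.9 to 434.9 ± 60.4 TPM (0.78, 0.0265). PSENEN, a gamma-secretase subunit, fell from 220.3 ± 51.1 to 67.6 ± 17.99 TPM (-1.69, 0.0360). Median-ratio scaling left 4 higher and 1 lower, 5 of 32 beside the 15.6% of all genes called, and SPEN was then not called. RBPJ itself was at 79.7 ± 26.4 and 60.9 ± 17.5 TPM (limma adjusted p = 0.439).

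Among the other HES and HEY genes 4 of 8 passed the filter on low values, and HEY1, HEY2 and HEYL rose, beside 15.8% of all genes. HEY1, a Notch target that is related to HES1, went from 16.8 ± 11.6 to 70.8 ± 16.1 TPM (log2 2.17, limma adjusted p = 0.00140). HEY2 went from 7.19 ± 8.30 to 22.4 ± 7.18 TPM (2.25, 0.0405). With median-ratio scaling HEY1 alone of the list passed. Of the TLE co-repressors 2 of 4 rose: TLE3 from 71.5 ± 5.23 to 235.1 ± 43.6 TPM (1.69, 1.13e-04) and TLE1 from 37.9 ± 5.0 to 60.5 ± 3.72 TPM (0.67, 0.0344), and TLE1 was not called under that scaling.

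Of the E proteins 0 of 3 passed, beside 20.1% of all genes called. TCF3 was at 45.2 ± 6.53 and 66.6 ± 12.9 TPM after 7.5 and 60 min (limma adjusted p = 0.211), a positive difference. TCF4 was at 100.3 ± 25.9 and 74.99 ± 4.42 TPM and TCF12 at 93.3 ± 28.9 and 53.3 ± 3.28 TPM (limma adjusted p = 0.252 and 0.104), both negative differences. Under median-ratio scaling TCF4 and TCF12 passed as lower, beside 15.6% of all genes called. Their medians, like those of the other lists, compare with 0.24 over all genes. When primary TPM were added to mature TPM, 10.7% of all genes were called. In that setting 2 rose and 1 fell of 24 BMP and SMAD genes, and likewise of 32 Notch genes. TCF4 and TCF12 fell, and 0 of the TLE or other HES and HEY genes passed.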

How the data were processed

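The members and gene lists were chosen with earlier results of these data known. RSEM 1.2.11 (with Bowtie 1.0.1 and hg19 in the submitters' processing notes) gave the deposited TPM on GENCODE 19 with 1 added primary isoform per gene, per the deposited readme. Also deposited were the excised fraction per intron (bam2ssj, more than 5 reads in each replicate), splice-site scores (MaxEnt), log10 intron lengths and gene scores from INSPEcT and other data, which the authors computed and centred. Estimated copies per cell were the authors' values from spike-ins. There were 8 columns of per-sample values not used here. Names came from GENCODE 29, which matched 91.1% of gene IDs at a mean of 1 TPM or more.

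Mature values were tested as log2(TPM + 1) where the mean was at least 1 TPM, primary values and the primary to mature ratio with 0.1 added and a primary mean of at least 0.1 TPM. Fold changes are on these scales, which understate changes of low genes. limma 3.58.1 in R 4.3.3 (moderated with a mean-variance trend, all labelled groups in 1 fit, total RNA in a fit of all 18 libraries) gave Benjamini-Hochberg adjusted p-values over all genes, with a threshold of 0.05. It was tested on simulated data. Depth in reads is unknown, so no counting intervals are given. From each list the text names the 2 genes with the highest labelled mean and the one with the largest called change. The genes called most like a member are the 3 with the highest r, of which 1 is not reported here. Other pseudocounts, filters, scalings and sets of libraries were tried. Adding primary to mature TPM, dropping the second library at 45 min, averaging the total preparations and recounting the lists were chosen after the data were seen.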

Additional observations from a re-analysis of the deposited data

How the results depend on the processing

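Of 69 recounts of the 6 genes under other settings or without 1 library, 64 stayed within 1.5 times the count reported, and 360 of 393 single-gene values kept sign and side of the threshold. At 60 against 7.5 min the count of 2 became 5 with the replicate block, where the calls over all genes went from 3358 to 4759. It became 5 in a fit of only the 6 libraries compared (4063 genes in all). With mature plus primary TPM it became 1, where 748 genes were higher and 1311 lower in all. At 30 against 7.5 min the block gave 5 of 6 (2611 genes in all against 1430), and 3 single libraries left out gave 877 to 933 genes. Between 60 and 30 min the block gave 0 of 6 and 81 genes, no filter 4 genes and leaving out the second library at 45 min 1. Averaging the total preparations gave 4693 genes called. Primary TPM under median-ratio scaling gave 0 of 5 and 6098 genes. Signs reversed for ID1 between 60 and 30 min (-0.032 with median-ratio scaling, -0.24 to 0.66 with 1 library left out), for HES4 in that step (-0.45 to 0.018 with 1 library left out, the positive value without the second of 30 min), for primary ID3 (0.69) and HES1 (0.46) with median-ratio scaling, and for primary HES4 without the second library of 7.5 or of 60 min (-0.33 to 0.54 with 1 library left out). The cause was not tested. Deviations from group means had r of -0.0129 to 0.341 over 30 pairs of libraries of the same number and -0.305 to 0.128 over 60 pairs of different numbers. The same-number pairs of 7.5 and 60 min had 0.273, 0.0835 and 0.0893. As not every pair was over 0.1, the numbers were not taken as pairing the libraries, although 13 of 15 libraries correlated best with their own number, a hint from the data. With the block ID1, ID2 and ID3 joined the mature calls at 60 against 7.5 min (limma adjusted p = 0.00493, 8.60e-04 and 4.27e-05), ID3 joined the 3 primary calls (0.0127), and the ratio kept 4 calls. Without a read depth, low values cannot be given a counting error.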
